A study of Mus musculus with 2 samples.

Results

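Called cytosines were described at the genes of 10 transcription factors that hold mouse embryonic stem cells in the naive pluripotent state: the core factors Pou5f1, Sox2 and Nanog, the Krüppel-like factors Klf2, Klf4 and Klf5, the orphan nuclear receptors Esrrb and Nr5a2, and Tfcp2l1 and Prdm14. A site belonged to a gene if it lay between the start and end that RefSeq gives for the gene on GRCm38, the build also called mm10, or within 2 kb on either side. These are 10 of 21883 protein-coding genes on the chromosomes with calls. They held 11 of 28569 called sites in replicate 1 and 11 of 29650 in replicate 2.

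The modification mapped is 5-formylcytosine (5fC), which TET enzymes make by oxidising methylated cytosine and which base excision repair can turn back into plain cytosine. There was 1 group, mouse embryonic stem cells (mESC), with 2 libraries from genomic DNA and no treatment, genotype or strain named in the labels. DNA was sheared to 300 to 500 bp, biotin was attached to 5fC, tagged fragments were captured on beads, and the deaminase A3A converted the other cytosines, so that a C still read as C is a candidate 5fC. No control library was among the samples, so cytosines that escaped A3A without being 5fC cannot be told apart from 5fC, no condition could be compared with another, and the cell type could not be checked on DNA sites. No label says that the libraries came from separate cultures.

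In the naive state the core factors bind together at enhancers, their own included, and keep each other active. The Krüppel-like factors, Esrrb, Nr5a2 and Tfcp2l1 form an outer circle whose members can partly replace one another. Some of them answer to LIF or WNT signals. Prdm14 holds back FGF signalling and DNA methylation. Active cycles of cytosine methylation and oxidation are known at enhancers and promoters of embryonic stem cells, where 5fC is found at low abundance.

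Both libraries listed only cytosines with at least 30 reads and an adjusted p under 0.05, so a gene with no called cytosine cannot be told apart from a gene without that depth. Median depth at listed sites was 34 reads in each library, and reads at listed sites summed to 1039807 and 1078502. The level of a site is the percentage of its reads that kept the C, with a 95% Wilson interval. It is a share among captured fragments, not among genomic copies, and the intervals cover counting error only because PCR reads without molecular identifiers are not independent molecules. At the 11542 sites that both libraries listed, the counts differed by less than the sampling noise (chi-square per degree of freedom 0.0611) and were identical at 8147 sites (70.6%). A shared site was therefore counted as 1 sample, and agreement between libraries is no independent evidence for its level.

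A call lay within a 300-base promoter window (250 bases before to 50 after the gene's start) in only 1 factor gene, Klf2. The window is shown because the call in replicate 1 falls inside it. RefSeq places it on the plus strand of GRCm38 at chr8:72318812-72319111, and the capitals mark the called C, at position 96 from the 5′ end, with the next 2 bases (trinucleotide CCG, so the called C stands just before a CpG).
Klf2 promoter window: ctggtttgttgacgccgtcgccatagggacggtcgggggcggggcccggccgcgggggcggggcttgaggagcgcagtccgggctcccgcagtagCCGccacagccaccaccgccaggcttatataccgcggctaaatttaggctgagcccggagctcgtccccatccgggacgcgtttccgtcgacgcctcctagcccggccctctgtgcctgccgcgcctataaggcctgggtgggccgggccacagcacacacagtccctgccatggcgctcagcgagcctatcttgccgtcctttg
This window holds 32 CpGs, against a median of 13 (quartiles 4 and 24) over the 21237 promoter windows of protein-coding genes. Promoter windows were at hand for 8 of the 10 factors, in 12 windows, but not for Klf5 and Prdm14. In replicate 1, 1 of the 12 windows held a call, against 2.55% of all windows, and in replicate 2 it was 0 of 12, against 2.39%. The Klf2 call of replicate 2, at position 72318803, lies just outside the window, which starts at 72318812.

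Among the core factors, Sox2, the HMG-box partner of Pou5f1, was the only gene with a called site. Both libraries placed the call at the same CpG on chromosome 3, but on opposite strands. In replicate 1 the plus-strand cytosine at position 34648925 kept the C in 13 of 38 reads, a level of 34.2% (Wilson interval 21.2 to 50.1). In replicate 2 the minus-strand cytosine at position 34648926 kept it in 13 of 41 reads, 31.7% (19.6 to 47.0). The intervals overlap almost fully. The CpG lies 1070 bp before the 5′ end of Sox2 (34649995 to 34652461, plus strand), in the flank rather than in the gene, and inside the span of Sox2ot, the long noncoding RNA gene that overlaps Sox2. Neither library listed the other strand of this CpG.

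Such calls on opposite strands were found elsewhere too. Across the genome, 67 CpGs were called on 1 strand by replicate 1 alone and on the other strand by replicate 2 alone. These were 5.23% of the 1282 CG sites that only replicate 1 listed. At 48 of the 67 (71.6%) the number of reads that kept the C was the same in both libraries, as at Sox2. A further case stood in a promoter window of Prdm1, a relative of Prdm14 that represses transcription in germ cell precursors and plasma cells; it was chosen after its values were seen, because it lets the CpG be shown in sequence. The window is on the minus strand of GRCm38 at chr10:44458699-44458998, and the capitals mark the called CpG.
Prdm1 promoter window: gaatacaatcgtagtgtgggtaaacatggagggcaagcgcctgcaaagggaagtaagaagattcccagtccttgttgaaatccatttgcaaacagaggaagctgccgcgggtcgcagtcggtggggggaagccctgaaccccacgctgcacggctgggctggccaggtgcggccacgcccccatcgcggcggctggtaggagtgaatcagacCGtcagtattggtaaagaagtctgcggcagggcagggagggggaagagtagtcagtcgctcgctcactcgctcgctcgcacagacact
Replicate 1 listed the plus-strand cytosine of this CpG with 14 of 31 reads kept (45.2%), and replicate 2 the minus-strand cytosine with 14 of 32 (43.8%).

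No site was listed in either library at Pou5f1, which encodes OCT4, or at Nanog, the homeobox factor of the core. From Pou5f1 (chromosome 17, 35506032 to 35510777) the nearest called cytosine lay 32955 bp away in replicate 1 and 85429 bp in replicate 2. Such distances were not computed for other protein-coding genes, so these are not called large or small. At Nanog (chromosome 6, 122707489 to 122714633) the nearest call lay 8994 bp beyond the end of the gene, outside the 2 kb flank. It was a CHH site (H is any base but G), shared by both libraries with 17 of 31 reads kept in each, 54.8% (37.8 to 70.8). Both are short genes, and of protein-coding genes of up to 10 kb only 24.0% held a call in either library.

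The Krüppel-like factors all had calls, and these reached the highest level of any factor site. Klf2, a zinc finger factor that supports self-renewal, had 1 call in each library, both just before the gene (chromosome 8, 72319062 to 72321654). Replicate 1 listed the CHG site at position 72318907, 155 bp before the gene, with 43 of 46 reads kept. Replicate 2 listed a CHG site at position 72318803, 259 bp before the gene, also with 43 of 46 reads kept. The level was 93.5% in both (82.5 to 97.8). The positions are 104 bp apart and on the same strand, and neither library listed the position of the other. The libraries thus gave the same counts at different positions.

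Klf4, a reprogramming factor that binds with the core factors, held CG sites within the gene (chromosome 4, 55527137 to 55532475, minus strand). The site at position 55530585, 1890 bp after the 5′ end, was shared, with 14 of 42 reads kept in each library, 33.3% (21.0 to 48.4). Another CG site stood 30 bp away at position 55530555 and was listed by replicate 1 alone. There 35 of 36 reads kept the C, 97.2% (85.8 to 99.5), the highest level of the factor sites. Within replicate 1 the intervals of these neighbouring CpGs do not overlap. Both cytosines are on the plus strand and in the trinucleotide CGC. Beyond the flank, 3144 bp before the 5′ end, a further CG site at position 55535619 was shared with 26 of 30 reads kept in each library, 86.7% (70.3 to 94.7).

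Klf5, which supports self-renewal alongside Klf2 and Klf4, had a site near each end of the gene (chromosome 14, 99298691 to 99313412). The CG site at position 99313239, 173 bp inside the higher-coordinate end, was shared with 8 of 32 reads kept in each library. Its level of 25% (13.3 to 42.1) was the lowest of the factor sites and its call the weakest, with an adjusted p of 0.0137 in replicate 1 and 0.0145 in replicate 2 in the authors' deposited table. Those p-values were computed against a background of 6.93% of reads keeping the C. The CHG site at position 99299356, 665 bp inside the other end, was listed by replicate 1 alone with 21 of 30 reads kept, 70.0% (52.1 to 83.3). The intervals of the Klf5 sites do not overlap.

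**Figure D1:**
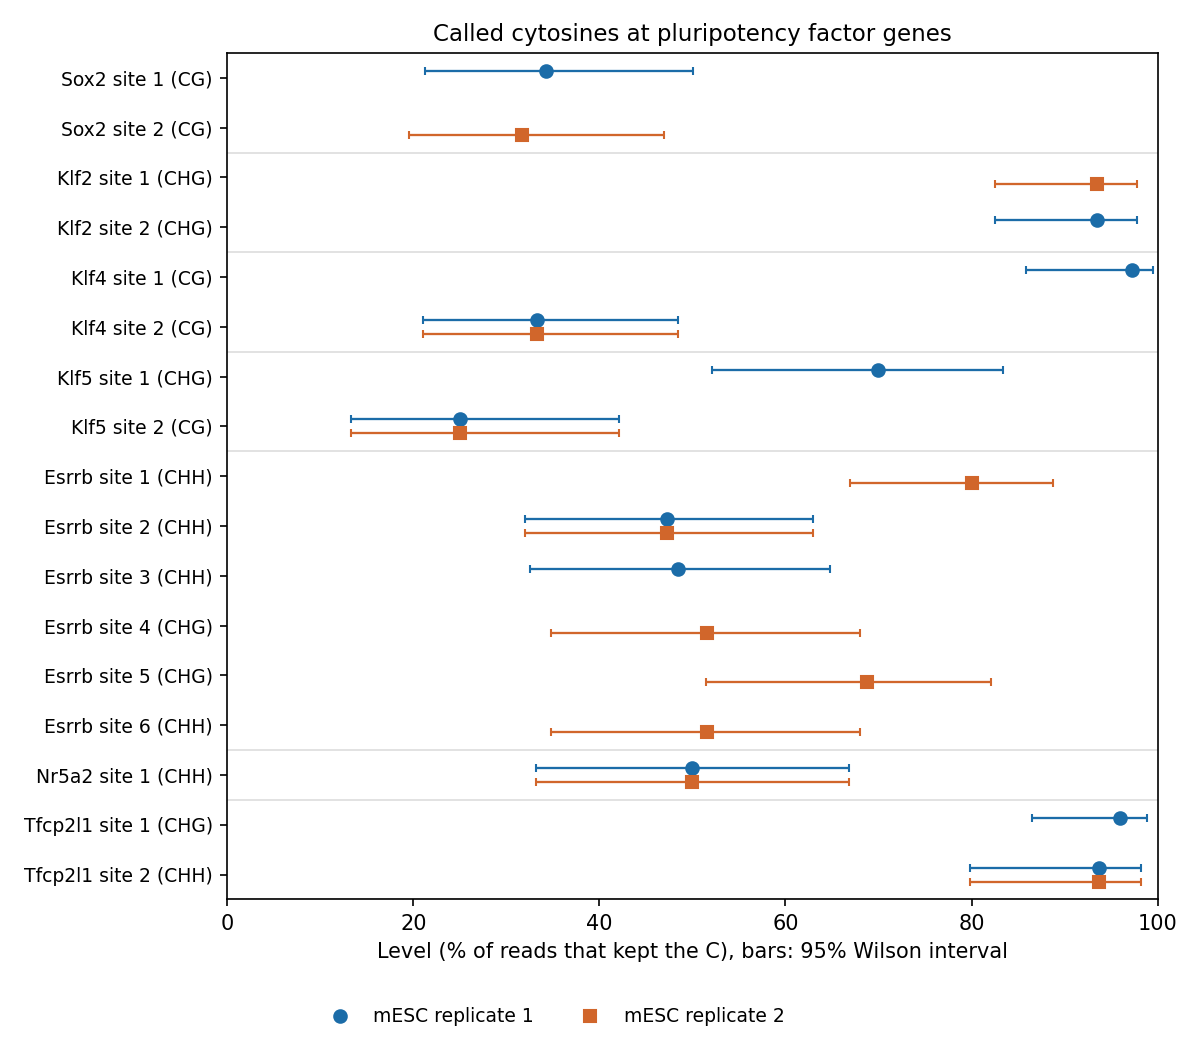
Level of each called site at the 7 factor genes with a call, in percent of reads that kept the C, with the 95% Wilson interval, by library. Sites are numbered along the chromosome within each gene. The 5 sites drawn with both markers were shared and have the same level in both libraries, and sites of Klf2 and Tfcp2l1 all lie above 90%.

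Of the nuclear receptors, Esrrb, an estrogen-related receptor that Tcf7l1 represses until WNT signals lift the repression, had the most distinct sites, 6, all inside the gene and all outside CG. Esrrb is also the longest factor gene, at 160.5 kb (chromosome 12, 86361117 to 86521628). Replicate 1 listed 2 sites and replicate 2 listed 5. The shared site was a CHH cytosine at position 86401434, with 17 of 36 reads kept in each library, 47.2% (32.0 to 63.0). Further along the gene, replicate 1 listed position 86412838 on the minus strand with 16 of 33 reads kept, 48.5% (32.5 to 64.8). Replicate 2 listed the neighbouring base, 86412839, on the plus strand with 16 of 31 kept, 51.6% (34.8 to 68.0). As at Sox2, the libraries differed by 1 bp and by strand and had the same number of kept reads, here without a CpG.

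The other Esrrb sites came from replicate 2 alone. The site nearest the 5′ end, at position 86363438 and 2321 bp into the gene, had the highest level, with 40 of 50 reads kept, 80% (67.0 to 88.8). Its interval lies above those of the shared site and overlaps those of the next in order. These were 68.8% at position 86478908 (51.4 to 82.0, 22 of 32 reads) and 51.6% at position 86505727 (34.8 to 68.0, 16 of 31 reads). No call of replicate 1 lay within 120 bp of these 3 sites. Nr5a2, also called LRH-1, which binds Pou5f1 regulatory elements, had 1 site in 117.9 kb (chromosome 1, 136842562 to 136960448, minus strand). It was a shared CHH site at position 136859731, with 15 of 30 reads kept in each library, 50.0% (33.2 to 66.8).

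Tfcp2l1, a grainyhead-family factor that acts downstream of LIF and STAT3, had high levels at both of its sites (chromosome 1, 118627923 to 118685168). The shared CHH site at position 118652380 kept the C in 30 of 32 reads in each library, 93.8% (79.9 to 98.3). The CHG site at position 118644113, 16190 bp into the gene, was listed by replicate 1 alone with 48 of 50 reads kept, 96.0% (86.5 to 98.9). Their intervals overlap with each other and with those of Klf2 and of the high Klf4 site. Prdm14, the PR-domain factor (chromosome 1, 13113428 to 13127163), had no site in either library. Its nearest call lay 31530 bp away in replicate 1 and 9265 bp away in replicate 2, at a CHH cytosine with 13 of 35 reads kept (37.1%).

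**Figure D2:**
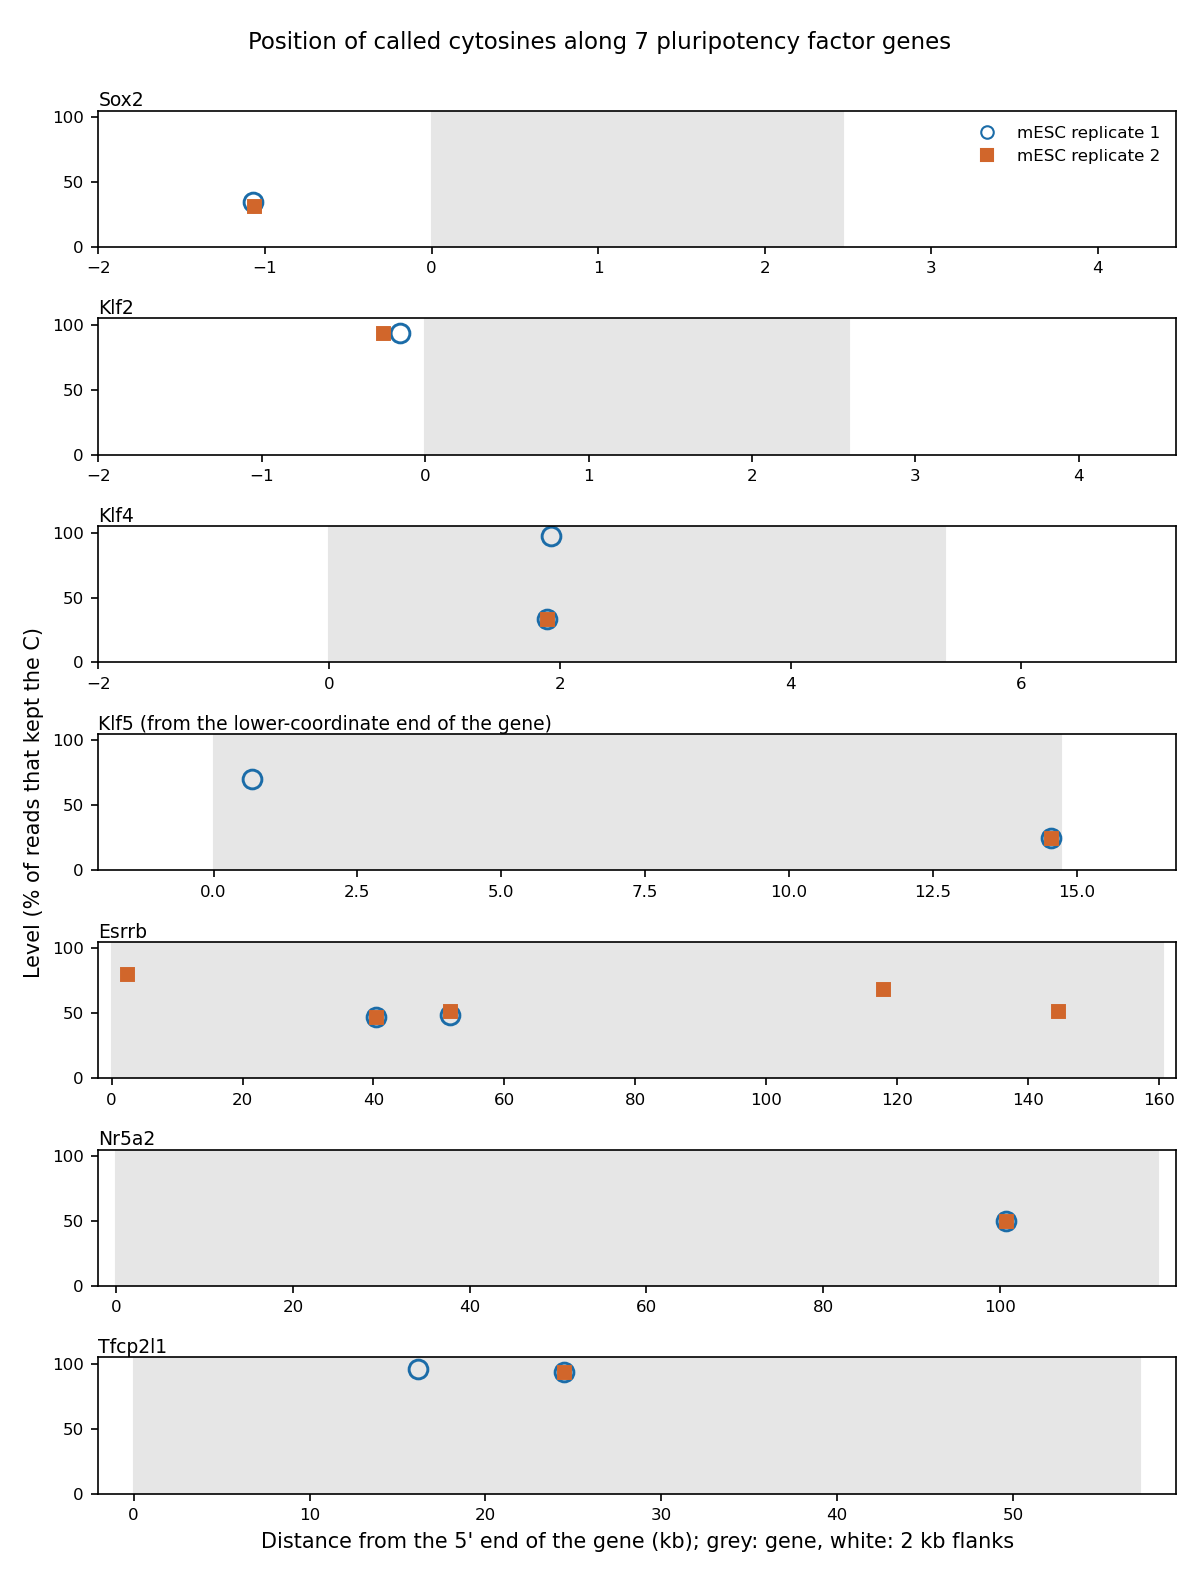
Distance of each called site from the 5′ end of its gene in kb (for Klf5 from the lower-coordinate end) against its level in percent, with open circles for replicate 1 and filled squares for replicate 2, 1 panel per gene. The calls of Sox2 and Klf2 stand in the white 2 kb flank before the gene, and those of the other 5 genes stand inside the grey span.

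In all, the factor genes had 17 distinct sites, of which 5 were shared, 6 were in replicate 1 alone and 6 in replicate 2 alone. So 5 of the 11 sites of each library were shared. Over all called sites, 11542 were shared, of 28569 in replicate 1 and 29650 in replicate 2. Of the 17, 13 lay inside a gene and 4 in a flank, the latter all before Sox2 and Klf2. The split between gene and flank was not computed over all called sites. The 5 shared sites belonged to Klf4, Klf5, Esrrb, Nr5a2 and Tfcp2l1, 1 each, and all 5 had identical counts. Fisher's exact test on their reads (two-sided, Benjamini-Hochberg over 11542 shared sites) called 0 of the 5 different, and 0 passed 0.05 without adjustment, since p was 1.0 at each. Identical counts fix this outcome, and the test takes the libraries as independent, so nothing is drawn from it. Of the 12 sites in 1 library alone, 7 had a call of the other library within 120 bp. These were the pairs at Sox2, Klf2 and Esrrb and the high Klf4 site, whose neighbour is the shared Klf4 site with other counts. The remaining 5 (1 in Klf5, 3 in Esrrb and 1 in Tfcp2l1) had none. Neighbours within 120 bp were not counted over all called sites, so 7 of 12 cannot be called particular to the factors.

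Levels at factor sites spanned most of the range of called sites. The median was 50.0% in replicate 1 (25% to 97.2%) and 51.6% in replicate 2 (25% to 93.8%), beside 46.7% and 46.2% over all called sites. Levels of at least 80% were found at 4 of 11 sites in replicate 1 and 3 of 11 in replicate 2, beside 22.0% and 21.5% of all sites. Ordered by level, the sites of Tfcp2l1 and Klf2 and the high Klf4 site stood above 90%, the other sites of Klf5, Esrrb and Nr5a2 between 47.2% and 80%, and the shared CG sites of Klf4 and Klf5 and the Sox2 CpG from 25% to 34.2%. Neighbours in this order do not differ beyond their intervals, while the group above 90% and the CG sites up to 34.2% have intervals that do not overlap. Depth at factor sites ran from 30 to 50 reads, with a median of 36 and 32.

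CG sites were 4 of 11 in replicate 1 (36.4%, Wilson interval 15.2 to 64.6) and 3 of 11 in replicate 2 (27.3%, 9.75 to 56.6), beside 8.01% and 8.20% of all called sites. They came from Sox2, Klf4 and Klf5, so neighbours within a gene are counted, and the genes were chosen with their CG calls known. The remaining sites were 6 CHG and 6 CHH cytosines, in Klf2, Klf5, Esrrb, Nr5a2 and Tfcp2l1.

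At least 1 call was found at 7 of the 10 genes in replicate 1, beside 39.4% of protein-coding genes, and at the same 7 in replicate 2, beside 40.3%. A shared call was found at 5 of the 10, beside 22.2%. A CG call was found at 3 of the 10 in each library, beside 6.70% and 7.15%, and a shared CG call at 2 of the 10, beside 3.16%. Since longer genes hold more calls, the shares were also read by length. Of the 5 factors of up to 10 kb (Pou5f1, Sox2, Nanog, Klf2 and Klf4), 3 had a call in each library, beside 18.2% and 18.5% of protein-coding genes of up to 10 kb. Of the 5 longer factors, 4 had a call, beside 47.7% and 48.9% of genes over 10 kb up to the length of Esrrb. A CG call was found at 2 of the 5 shorter factors, beside 3.50% and 3.39%, and at 1 of the 5 longer ones, beside 7.28% and 8.04%. The counts were above these shares, but the factors are few and were picked with earlier results of these data in view, so no test was made and nothing is drawn from it. Per length, the factor windows held 2.58 called sites per 100 kb in each library, beside 1.46 and 1.52 in the windows of all protein-coding genes. Without Esrrb the factor values were 3.44 and 2.29.

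**Figure D3:**
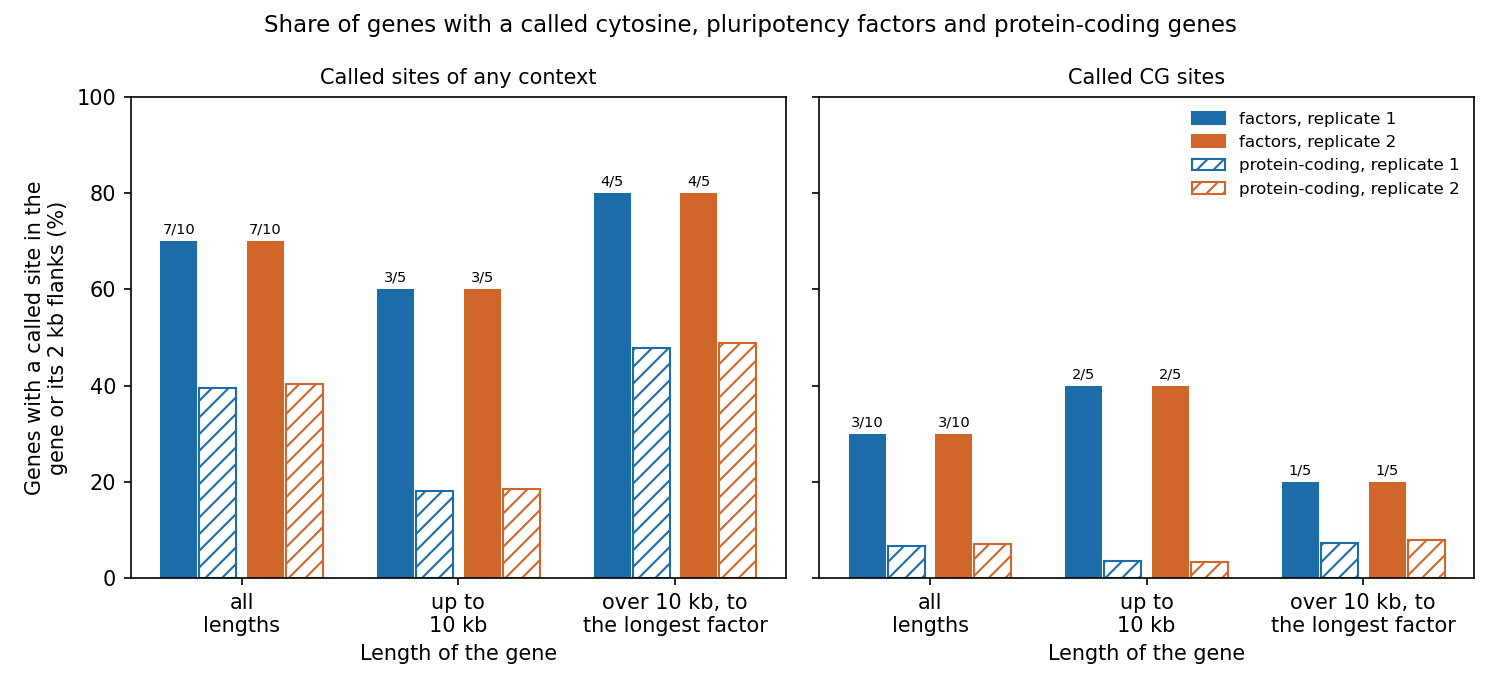
Percentage of genes with a called site in the gene or 2 kb flanks, for the 10 factors (filled bars, with counts) and all protein-coding genes (hatched bars), by library and gene length, for sites of any context on the left and CG sites on the right. The filled bars stand above the hatched ones in each pair, and each rests on 10 or 5 genes.

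Other genes around the naive network were read in the same way. Among 29 genes listed as further pluripotency regulators and markers, 7 had a call in each library, 24.1% in both. This lies below the 39.4% and 40.3% of all protein-coding genes but above the 18.2% and 18.5% of those of up to 10 kb, and the median gene of the list spans 6.88 kb, so no direction is given to it. A shared call was found at 4 of the 29 (13.8%), between the 22.2% of all protein-coding genes and the 8.38% of those of up to 10 kb. The 7 genes of replicate 2 include Tcf3 on chromosome 10, which had 1 call there and none in replicate 1. It is a separate gene from Tcf7l1, and it is counted only because its symbol stood in the list. Klf12, a long Krüppel-like gene, had 6 sites in each library, of which 3 were shared. Tcf7l1, the WNT-regulated repressor of naive genes, had 5 and 6 sites, of which 4 were shared. Utf1, a chromatin factor of undifferentiated cells, had 1 shared CHH site at which all 40 reads kept the C in each library. Tbx3, a T-box activator of the network, had 1 shared CHH site at 29.4% in both. Gbx2, a homeobox target of LIF signalling, had 3 and 2 sites, none shared. Its position 89927240 kept the C in 16 of 32 reads in replicate 1. Nearby position 89927231, on the opposite strand, kept it in 16 of 30 reads in replicate 2. The marker Zfp42, also called Rex1, had 1 site at 73.7% in replicate 1 alone.

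The Tcf7l1 promoter window is shown because a shared call with a near-complete level fell in it, at position 72789289 of chromosome 6, with 50 of 51 reads kept in each library (98.0%). The window lies on the minus strand of GRCm38 at chr6:72788996-72789295. The called cytosine is on the opposite strand, so it pairs with the G at position 7 of the printed strand, and the capitals mark the reverse complement of its trinucleotide CCG.
Tcf7l1 promoter window: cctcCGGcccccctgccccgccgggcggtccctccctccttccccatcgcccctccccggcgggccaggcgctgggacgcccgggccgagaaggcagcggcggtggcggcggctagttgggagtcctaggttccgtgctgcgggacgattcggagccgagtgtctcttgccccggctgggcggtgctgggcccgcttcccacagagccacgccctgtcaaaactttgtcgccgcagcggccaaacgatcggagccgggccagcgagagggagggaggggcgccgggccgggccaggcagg
As in the Klf2 window above, the called C is followed by a CpG, in a window with 34 CpGs.

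Of 26 genes that carry LIF, BMP, WNT and FGF signals to the network, 11 had a call in replicate 1 (42.3%) and 14 in replicate 2 (53.8%), beside 39.4% and 40.3% of all protein-coding genes and 47.7% and 48.9% of those over 10 kb up to the length of Esrrb, at a median gene length of 36.16 kb. A shared call was found at 2 of the 26 (7.69%), beside 22.2% of all protein-coding genes and 26.4% of the longer ones. Fgfr2, an FGF receptor, had 2 and 3 sites, with a shared CHH site at 23.8%. Stat3, the effector of LIF, had 2 sites in each library and none shared. Its sites at position 100939393 in replicate 1 and 100939502 in replicate 2 both had 15 of 49 reads kept (30.6%). Equal counts at different positions were also seen in the Klf2 pair, but the Stat3 sites are on opposite strands. Id1, a BMP target, had 1 and 2 sites, of which position 152736483 kept the C in all 37 reads of replicate 1 and position 152736593 in all 36 reads of replicate 2. Etv5, Mapk3 and Smad1 had 3 sites each over both libraries, none of them shared. In each, a call of replicate 1 lay within 120 bp of a call of replicate 2, on the opposite strand with equal kept reads. The kept reads were 16 of 37 and 16 of 38 in Etv5, and 12 of 38 and 12 of 37 in Mapk3. In Smad1 they were 8 of 30 and 8 of 33. Fgfr2 and Map2k2 had such pairs too. Sharing required the same position and strand, so such pairs count as not shared.

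Of 11 genes of the exit to the formative and primed states, 5 had a call in replicate 1 (45.5%) and 6 in replicate 2 (54.5%), beside 39.4% and 40.3% of all protein-coding genes, at a median gene length of 10.86 kb. A shared call was found at 1 of the 11 (9.09%, beside 22.2%), the growth factor gene Fgf5. That CHH site stood at 86.8% in replicate 1 and 86.1% in replicate 2. The WNT effector Lef1 had 1 and 3 sites, and the zinc finger gene Zic2 1 and 2, none shared. Zfp521, a zinc finger gene of neural commitment, had 2 and 1, and Sox4 2 and Lin28b 1 in replicate 2 alone.

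Of 19 relatives of the factors, 9 had a call in replicate 1 (47.4%) and 11 in replicate 2 (57.9%), beside 39.4% and 40.3% of all protein-coding genes and 47.7% and 48.9% of those over 10 kb up to the length of Esrrb, at a median gene length of 26.9 kb. A shared call was found at 5 of the 19 (26.3%), beside 22.2% and, for the longer genes, 26.4%. Esrrg, the relative of Esrrb, had 5 and 6 sites over 606.4 kb, of which 2 were shared, against 2 and 5 sites in the shorter Esrrb. Esrra, the third gene of that family, had 1 and 2, none shared. Nr5a1, the relative of Nr5a2, had 2 sites in each library, none shared, 1 of them a CG site at 66.7% in replicate 1. Klf7 had 1 shared CHH site at 66.7% and 68.4%, and Prdm15 1 at 71.4% in both. Klf15 had 2 sites in replicate 2 alone. A CG call in either library was found at 2 of the 29 further regulators, 4 of the 26 signalling genes, 2 of the 11 exit genes and 3 of the 19 relatives, beside 10.0% of all protein-coding genes. A shared CG call was found at 0 genes of each list, beside 3.16%, at which lists of this size hold few or none.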

How the data were processed

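Each file lists cytosines with 3 read counts that the authors deposited without normalization, namely reads with C kept, reads with C lost and depth. Beside them stand the deposited p-values of each cytosine, raw and adjusted after Holm and after Benjamini-Hochberg. Bismark 0.23.1, Bowtie2 2.4.5, cutadapt 4.1, SAMtools, FastQC 0.11.9 and the mm10 build are named, without their roles, in the submitters' processing notes. On duplicate removal nothing is stated in the sources used here.

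Sites were assigned to genes of a RefSeq table of GRCm38.p6 with 2 kb flanks, so that exons were not used. Listed positions count from 1: the trinucleotide matched RefSeq promoter sequence at 675 of 675 sites checked in replicate 1 and 624 of 624 in replicate 2. Gene strand came from the promoter table. A 95% Wilson interval was given per site. Shared sites were matched on chromosome, position and strand and tested with Fisher's exact test. That test was tried on simulated data with independent counts in each library, unlike the counts here. The background of 6.93% was solved from the deposited p-values, read as the binomial probability of the listed count. Of list symbols, Ronin and Oct6 were not matched. These are other names of Thap11 and Pou3f1, which the same lists hold and which were matched. All factors are named, and up to 6 genes per list with the most sites. Prdm1 was added after values were seen, and some genes stand in more than 1 list. The factors and lists were chosen with earlier results of these data known. Alternatives were other flanks, thresholds, depths and gene lengths and each library alone. Python 3.11.15 was used with scipy 1.17.1, statsmodels 0.14.6, pandas 2.3.3, numpy 2.4.6 and matplotlib 3.10.9.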

Additional observations from a re-analysis of the deposited data

How the results depend on the processing

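Called sites per library, genes with a call, the median level and the shares inside genes and in CG were recomputed under each alternative. Gene length classes were chosen after seeing the data. Site numbers, median levels and shares of sites are means of the values of both libraries. With a depth of at least 40, 3.5 sites per library remained instead of 11, 1 factor instead of 5 had a shared call, the median level was 75.1% instead of 50.8%, 58.3% of sites lay inside a gene instead of 81.8%, and CG sites were 41.7% instead of 31.8%. With an adjusted p under 0.01 or 0.001 the median level was 55.8%, 80% of sites lay inside and 25% were CG, since the low Klf5 site was lost. With no flank 100% lay inside by construction, and with a 10 kb flank 54.6%. With no flank 5 factors had a call in either library instead of 7, since Sox2 and Klf2 had calls only in a flank. With a 10 kb flank 9 factors had a call, and with a depth of at least 40 it was 5. The share of all protein-coding genes was not computed at these flanks or this depth. These counts of factors therefore cannot be called high or low. With CG sites only, 3 factors had a call. The background, as the mean of the shares in each library, was 39.85% of protein-coding genes. It became 41.7% for genes as long as the factors, 6.925% for CG sites, 18.35% for genes of up to 10 kb and 48.3% for longer ones. The factors with a call were instead counted over either library. Counted in that way with 2 kb flanks, the share of all protein-coding genes was 47.9%, and 10.0% for CG sites. Within 5 bp, 4 sites of 1 library had a call of the other library near by, instead of 7 within 120 bp. Each library alone left the numbers of sites and genes as they were, at 11 and 7. No paired analysis was possible because there is 1 group. Uncalled cytosines and their depth were not analysed here, so a gene without a call cannot be told from one without 30 reads.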
